A study of Sus scrofa with 26 samples.

Results

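The superoxide dismutases and catalase were followed on the arrays through 27 probes of 60305, every probe taken apart. A probe that was not a control was assigned to SOD1, SOD2, SOD3 or CAT by its gene name in any case, by its accession or by its description. This gave 5 probes for SOD1, 9 for SOD2, 2 for SOD3 and 11 for CAT. The gene name assigned 25 of them, the accession 1 probe of SOD3 and the description 1 probe of CAT. The copper chaperone CCS and a probe described by a plant superoxide dismutase were left out.

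The tissue was the subcutaneous adipose tissue (SCAT) of 26 castrated growing pigs, 1 animal per one-colour array. The pigs were Creole, a Caribbean breed, Large White (LW), or their cross (F1). They were held either at thermoneutrality (TN, 24 °C; 3 Creole, 4 F1 and 4 LW pigs) or under heat stress (HS; 5 pigs of each breed), which makes 11 TN and 15 HS arrays. The labels write 30 °C for HS, whereas the growth protocol of the series gives 32 °C over 5 days. The TN pigs were slaughtered before the temperature rose, so that temperature, slaughter day and age at slaughter cannot be told apart. The pens and parents of the pigs are not given by the labels. In a bulk tissue, fewer cells of a type and less RNA per cell cannot be told apart either.

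Superoxide leaks from the respiratory chain and is made by NADPH oxidases, and superoxide dismutases turn it into hydrogen peroxide. SOD1 is the copper and zinc enzyme of the cytosol, SOD2 the manganese enzyme of the mitochondrial matrix, and SOD3 a secreted copper and zinc enzyme bound to the extracellular matrix. Catalase, the haem enzyme encoded by CAT, breaks hydrogen peroxide down into water and oxygen in the peroxisome, and it is also abundant in red blood cells together with SOD1.

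The probes the results turn on are given here 5′ to 3′ as the array files print them. The first pair, of SOD1, shares a run of 31 bases, in capitals. A_72_P722878 was the SOD1 probe that changed with temperature, and A_72_P741111 overlaps it.
A_72_P722878: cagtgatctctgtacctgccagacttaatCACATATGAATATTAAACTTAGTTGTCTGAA
A_72_P741111: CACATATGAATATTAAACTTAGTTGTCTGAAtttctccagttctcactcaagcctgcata
Both SOD2 probes that changed with temperature follow, in lower case.
A_72_P023251: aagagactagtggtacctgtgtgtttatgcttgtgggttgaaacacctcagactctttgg
A_72_P655932: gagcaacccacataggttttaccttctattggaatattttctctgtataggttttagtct
The next pair, also of SOD2, shares a run of 40 bases, in capitals, but differed in its breed contrast. The SOD2 probe A_72_P503136 has the same 60 bases as A_72_P341278.
A_72_P341278: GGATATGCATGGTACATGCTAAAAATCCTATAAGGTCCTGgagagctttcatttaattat
A_72_P669424: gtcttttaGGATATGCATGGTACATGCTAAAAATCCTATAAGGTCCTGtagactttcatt
The last SOD2 pair is printed in opposite orientations, and the capitals mark the 22 bases of each that are the reverse complement of the other. A_72_P444413 had the widest range of all members, and O14696 was at background.
A_72_P444413: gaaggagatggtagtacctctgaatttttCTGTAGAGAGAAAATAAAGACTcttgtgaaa
O14696: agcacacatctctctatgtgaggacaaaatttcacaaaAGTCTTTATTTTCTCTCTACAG
Over the 31 bases by which both reach across each other, the pair differed at 1 position, C52T, counted from the 5′ end of A_72_P444413, with the base of the reverse complement of O14696 given last.
The last sequences are the CAT and SOD3 probes with the largest breed contrasts of their genes.
A_72_P686566: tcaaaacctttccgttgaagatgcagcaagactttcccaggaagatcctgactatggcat
O6249: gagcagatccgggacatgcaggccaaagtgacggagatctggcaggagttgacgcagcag

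Of the 27 probes, 25 were well above background on all 26 arrays, and these 25 were tested. O14696 of SOD2 was well above background on 2 arrays, and A_72_P424079, the CAT probe assigned by its description, on none. Between 41313 and 46184 probes per array were well above background, and no spot was saturated. Correlations between arrays across probes ranged from 0.972 to 0.993. The 5 slides each held arrays of both temperatures. All levels are log2 quantile-normalized intensities, and a level is not comparable between probes as an amount of transcript. Where probes of a gene are set against each other, the result is whether their difference on the same array changes between groups.

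Probes of the same gene followed each other across the 26 arrays. Several of them share bases, so that pairs are not independent. CAT A_72_P579607 and A_72_P644069 share 49, CAT A_72_P576934 and O2285 share 41, and SOD1 A_72_P733208 and A_72_P741111 share 38. Pearson's r over pairs of probes of 1 gene, leaving out A_72_P444413, had a median of 0.79 for SOD1 (10 pairs), 0.74 for SOD2 (21 pairs) and 0.79 for CAT (45 pairs). The corresponding Spearman's rho had medians of 0.72, 0.69 and 0.79. The only SOD3 pair had r = 0.91 and rho = 0.89. For r, all 77 pairs had an adjusted permutation p under the threshold of 0.05, and the largest, of a SOD2 pair, was 0.0373. For rho, 1 pair did not pass, SOD2 A_72_P503136 with A_72_P648498 (rho = 0.38, adjusted permutation p = 0.0564). Without the 2 arrays farthest from the median of the first probe, the lowest r was 0.25 in SOD2 and 0.40 in CAT. After subtraction of the 6 group means the median r was 0.68 for SOD1, 0.71 for SOD2 and 0.80 for CAT. The identical SOD2 probes A_72_P341278 and A_72_P503136 had r = 0.99, and their difference had an SD of 0.06 over arrays. This is the closest the data come to a technical repeat of a member.

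The first comparison asked whether superoxide dismutase and catalase transcripts changed under heat. Of the 25 tested probes, 3 changed between HS and TN, all of them lower in HS, namely 1 of SOD1 and 2 of SOD2. Over all 44703 tested probes, 12.2% were past the same threshold, with 5.17% higher and 7.02% lower, so that 3 of 25 is a share near the background. With the processed signal scaled to the 75th percentile, 11 of 25 passed, against 14.1% of all tested probes. The direction was shared within genes, although probes of a gene that share bases are not independent readings of it. All 5 SOD1 probes, all 8 SOD2 probes and both SOD3 probes lay below zero, with medians of -0.16, -0.23 and -0.10. The median over all tested probes was 0.00, with 49.3% below zero. Of the 10 CAT probes, 9 lay above zero with a median of 0.07, but 7 of them turned below zero when the processed signals were scaled to the 75th percentile.

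SOD1, the cytosolic enzyme, was lower in HS on A_72_P722878. Its level ranged from 14.60 to 15.005 with a median of 14.71 over the 11 TN arrays. Over the 15 HS arrays it ranged from 14.06 to 14.73 with a median of 14.56. The groups overlapped, but 11 of 15 HS arrays were below every TN array, and 13 of 15 were below the TN mean of their own breed. The difference was -0.24 ± 0.06 (SE), with an adjusted p of 0.0122 by limma. The overlapping A_72_P741111 had -0.16 (adjusted p = 0.0521), A_72_P733208 -0.17 (0.0522), A_72_P757088 -0.13 (0.107) and A_72_P721668 -0.11 (0.170). All 5 had an unadjusted p under 0.05. With the processed signal, 75th percentile, all 5 passed, A_72_P757088 at -0.25 (adjusted p = 0.00762) and A_72_P721668 at -0.22 (adjusted p = 0.0244). Of all 12 other settings, A_72_P741111 passed in 6 and A_72_P733208 in 5. With an array left out, A_72_P741111 passed in 6 and A_72_P733208 in 7 of 26 fits. The mean over the 5 SOD1 probes was lower by -0.16 ± 0.05 (SE, adjusted p = 0.0318 over 9965 gene means). On every slide the mean of A_72_P722878 was lower in HS, by values from -0.48 to -0.0094. These slide means are not adjusted for breed, which was spread unevenly over the slides.

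Within single breeds, this SOD1 probe passed the threshold in LW. The LW TN arrays had A_72_P722878 at 14.61, 14.78, 14.86 and 14.78. The LW HS arrays had 14.38, 14.19, 14.06, 14.35 and 14.55. No LW array of one temperature lay within the range of the other. The skeletal muscle score ran from -2.39 to 0.25 in LW TN and from -0.70 to 1.91 in LW HS. All 9 measured skeletal muscle markers were above zero within LW, with a median of 1.77 and none past the threshold, and their part in the SOD1 difference was not tested. The difference within LW was -0.46 ± 0.09 (SE, adjusted p = 0.0156), the only one of 25 probes past the threshold there, against 1.5% of all tested probes, 0.403% higher and 1.09% lower. Within Creole it was -0.19 ± 0.10 (SE, adjusted p = 0.498) and within F1 -0.07 ± 0.09 (SE, adjusted p = 0.763). No member passed within those breeds, where 0.0716% (0.00895% higher, 0.0626% lower) and 0.421% (0.112% higher, 0.309% lower) of all probes did, and 6 and 2 members had an unadjusted p under 0.05. The difference between breeds in the response was not past the threshold either, with an unadjusted interaction p of 0.0203 for A_72_P722878 and an adjusted p of 0.897 (limma). No member passed in that test (0.00224% of all probes), and 1 of 25 had an unadjusted p under 0.05. The LW call was lost with the slide as a fixed block (-0.44, adjusted p = 0.0678) and with the red blood cell score as covariate (-0.49, adjusted p = 0.125). It was also lost without LW TN replicate 2 (-0.45, adjusted p = 0.0587) and without LW TN replicate 3 (-0.42, adjusted p = 0.0581). In the latter fit 1 member passed within F1 instead, whereas without LW TN replicate 2 none passed within any breed. Without LW HS replicate 5, 5 members passed. The count was 4 without Creole HS replicate 5 and 2 without Creole HS replicate 3, F1 HS replicate 1, LW HS replicate 4 or LW TN replicate 1.

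SOD2, the mitochondrial enzyme, fell on A_72_P023251 and A_72_P655932. A_72_P655932 had levels from 8.63 to 9.38 over the TN arrays with a median of 8.86. Over the HS arrays it had levels from 8.25 to 8.88 with a median of 8.49. All 15 HS arrays were below the TN mean of their breed, and 12 were below every TN array. Within Creole and within F1 the temperatures did not overlap, whereas in LW they did. The difference was -0.38 ± 0.07 (SE, adjusted p = 0.00115).

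A_72_P023251 ranged from 10.59 to 11.38 in TN with a median of 10.99. In HS it ranged from 10.37 to 10.83 with a median of 10.58. Again all 15 HS arrays were below the TN mean of their breed, with 8 below every TN array. The difference was -0.37 ± 0.06 (SE, adjusted p = 0.000596), and it was -0.31, -0.45 and -0.34 within Creole, F1 and LW, with adjusted p-values of 0.318, 0.0576 and 0.0997. On each of the 5 slides both probes were lower in HS, from -0.71 to -0.07 for A_72_P023251 and from -0.69 to -0.17 for A_72_P655932. These slide means are not adjusted for breed. On slide 5 both TN arrays were LW and neither HS array was, and slide 1 held only 1 TN array.

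The other 6 SOD2 probes were below zero without passing the threshold. A_72_P613087 had -0.19 (adjusted p = 0.0516), A_72_P648498 -0.17 (0.0884), A_72_P341278 -0.25 (0.100), A_72_P503136 -0.25 (0.105), A_72_P669424 -0.17 (0.171) and A_72_P444413 -0.22 (0.833). With the processed signal, 75th percentile, the first 4 of these passed, at -0.26, -0.24, -0.34 and -0.34, with adjusted p-values from 0.00859 to 0.0230. A_72_P613087 also passed with normexp and quantile scaling, with probes well above background on every array, with the slide as a random block and with array weights. Without LW TN replicate 1, A_72_P341278 and A_72_P503136 passed. Each probe was then set against the median of the other tested probes of its gene on the same array, a comparison chosen after the values were seen. By a two-sided permutation test within breeds, adjusted over the 25 probes, A_72_P023251 fell further than the other SOD2 probes by -0.16 (adjusted p = 0.0326). For A_72_P655932 the extra change was -0.17 (adjusted p = 0.0645), although against A_72_P648498 alone, 1 of 4 probe pairs chosen with values known, its difference changed in HS by -0.21 (permutation test, adjusted p = 0.0198 over 4 pairs). In the other 3 pairs the change with temperature was not past the threshold, with adjusted p-values from 0.0592 to 0.939. Among the CAT probes, A_72_P632481 differed from the others in the opposite direction, by 0.09 (adjusted p = 0.0132). None of the 5 SOD1 probes differed from the rest of its gene past the threshold, and the smallest adjusted p there was 0.0900, for A_72_P721668.

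Leaving A_72_P444413 out of the mean over SOD2 probes, a choice made after its values were seen, gave a lower mean in HS by -0.25 ± 0.06 (SE, adjusted p = 0.0115). With that probe the mean was lower by nearly the same amount, with an SE of 0.10 and an adjusted p of 0.116.

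SOD3, the secreted enzyme, did not pass the threshold with temperature. O6249 had levels from 6.15 to 7.77 in TN and from 6.02 to 7.48 in HS, with medians of 6.98 and 6.85. The ranges overlapped nearly throughout. The difference was -0.12 (95% interval -0.45 to 0.21, adjusted p = 0.670), and that of A_72_P035826 was -0.08 (95% interval -0.29 to 0.13, adjusted p = 0.669).

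CAT had no probe past the threshold between HS and TN. Its leading probe A_72_P632481 ranged from 15.93 to 16.34 in TN with a median of 16.10. In HS it ranged from 15.92 to 16.62 with a median of 16.26. The ranges overlapped, and 12 of 15 HS arrays were above the TN mean of their breed. The difference was 0.15 ± 0.05 (SE, adjusted p = 0.0585). It passed the threshold without Creole HS replicate 5 (adjusted p = 0.0421), LW HS replicate 2 (0.0432) or LW HS replicate 3 (0.0320), and also with the processed signal, quantile (0.16, adjusted p = 0.0360) and with array weights (0.15, adjusted p = 0.0429). With the processed signal, 75th percentile, it was 0.020 (adjusted p = 0.857). The other CAT probes had 0.13 for A_72_P643147, 0.09 for A_72_P560529 and O2285, 0.07 for A_72_P664500 and A_72_P223317, 0.03 for A_72_P576934, 0.02 for A_72_P686566 and A_72_P644069, and -0.02 for A_72_P579607. With that scaling A_72_P643147 also had a value above zero, and the other 8 were below it. The mean over the 10 CAT probes differed by 0.06 (95% interval -0.06 to 0.18, adjusted p = 0.507).

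Markers of other cells moved with temperature in the same arrays. The score of the red blood cell list, the mean log2 level of its genes relative to all arrays, was lower in HS by -0.32 (two-sided permutation test within breeds, adjusted p = 0.00742 over 11 lists). It ran from -0.03 to 0.57 in TN and from -0.49 to 0.37 in HS. This list had 5 of 13 genes measured. Of these, HBB, a haemoglobin chain, was lower by -0.85 (adjusted p = 0.0110) and EPB42, a protein of the red cell membrane, by -0.38 (adjusted p = 0.0294), whereas AHSP (-0.47), ALAS2 (0.04) and SLC4A1 (0.06) did not pass. With this score as a covariate, A_72_P023251 alone of the members stayed past the threshold, at -0.39 (adjusted p = 0.0197), while A_72_P722878 had -0.25 (0.120) and A_72_P655932 -0.35 (0.0545). That setting left 528 of all tested probes past the threshold.

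Across the 26 arrays this score was set against the leading probe of each gene and, as an addition made after the values were seen, against the 3 probes that changed with temperature. SOD2 A_72_P655932 followed the score with r = 0.54 (permutation p = 0.00402, adjusted p = 0.0281 over 7 relations) and rho = 0.47 (p = 0.0162, adjusted p = 0.114). SOD2 A_72_P023251 had r = 0.47 (p = 0.0156, adjusted permutation p = 0.0547) and rho = 0.42 (p = 0.0329, adjusted p = 0.115), and SOD1 A_72_P722878 had r = 0.34 (p = 0.0942, adjusted p = 0.220) and rho = 0.35 (p = 0.0815, adjusted p = 0.153). Without the 2 arrays of the most extreme scores, r was 0.47, 0.37 and 0.38 in this order. After subtraction of the 6 group means, r was 0.10, -0.11 and -0.14, with an adjusted permutation p of 0.703 for each.

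Among the leading probes, r with the score was 0.13 for A_72_P721668 of SOD1 (permutation p = 0.517, adjusted p = 0.517), with rho 0.09 (p = 0.667, adjusted p = 0.667). For A_72_P632481 of CAT, r was -0.23 (p = 0.263, adjusted p = 0.368) and rho -0.34 (p = 0.0877, adjusted p = 0.153). For A_72_P341278 of SOD2, r was 0.28 (p = 0.165, adjusted p = 0.290) and rho 0.22 (p = 0.277, adjusted p = 0.323). For O6249 of SOD3, r was 0.20 (p = 0.316, adjusted p = 0.368) and rho 0.23 (p = 0.267, adjusted p = 0.323). None passed the threshold. Without the 2 arrays of the most extreme scores, r was 0.20, -0.23, 0.18 and 0.13 in the same order, and after subtraction of the group means it was -0.30, 0.20, 0.09 and 0.08, so that SOD1 and CAT changed sign.

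The scores of the fibroblast list (0.27, adjusted p = 0.0265, 4 of 8 genes higher, -0.90 to 0.27 in TN and -0.24 to 0.58 in HS) and the Schwann cell and nerve list (0.45, adjusted p = 0.00143, 2 of 5 genes higher, -0.68 to 0.16 in TN and -0.18 to 0.68 in HS) were higher in HS. The adipocyte score differed by -0.07 (adjusted p = 0.287), with 1 gene higher and 1 lower past the threshold. Adipocyte markers were measured for 9 of 10 genes, and the adipocyte hormone ADIPOQ had a mean log2 level of 17.42 over the arrays. The skeletal muscle score differed by 0.51 (adjusted p = 0.379), with all 9 measured genes above zero and none past the threshold. The part of these cells in the SOD1 and SOD2 differences was not tested beyond the red blood cell covariate.

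The second comparison asked whether the breeds differed in these enzymes. Of the 25 probes, 10 were past the threshold between LW and Creole, against 14.3% of all tested probes. They were both SOD3 probes and 4 of 8 SOD2 probes, higher in LW, where 6.89% of all probes were higher, and 4 of 10 CAT probes, lower in LW, where 7.43% were lower. No SOD1 probe passed, and all 5 lay between -0.17 and -0.07, the smallest adjusted p being 0.115. With the processed signal, 75th percentile, 16 of 25 probes passed, against 15.1% of all tested probes. Among these were 8 CAT probes, SOD1 A_72_P722878 (-0.26, adjusted p = 0.0463), A_72_P733208 (-0.27, adjusted p = 0.0323) and A_72_P741111 (-0.26, adjusted p = 0.0268). Within SOD2 all 8 probes were above zero, with a median of 0.24, and within CAT all 10 were below zero, with a median of -0.19. Probes that share bases are not independent readings here either. The median over all tested probes was 0.00.

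SOD2 A_72_P444413 had the largest difference, 2.47 ± 0.64 (SE, adjusted p = 0.0118), and its values fell into 2 separate clusters. From the intensities of 1 probe, a difference in transcript level and a difference in how the RNA hybridizes to that probe cannot be told apart, and the sequence of the animals under it was not examined. The Creole TN arrays had 6.27, 9.79 and 6.62, and the Creole HS arrays 6.02, 6.15, 9.28, 6.24 and 6.69. The F1 TN arrays had 9.98, 6.66, 6.39 and 6.59, and the F1 HS arrays 9.07, 6.09, 6.61, 6.43 and 6.45. The LW TN arrays had 9.13, 6.73, 11.07 and 10.55, and the LW HS arrays 9.70, 9.34, 9.27, 10.48 and 10.27. Thus 14 arrays lay between 6.02 and 6.73, 12 lay between 9.07 and 11.07, and none lay in the gap of 2.34 between them, whereas the next largest gap was 0.52.

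The upper cluster held 8 of 9 LW, 2 of 8 Creole and 2 of 9 F1 arrays. By temperature it held 5 of 11 TN and 7 of 15 HS arrays. F1 minus LW was -2.47 ± 0.62 (SE, adjusted p = 0.0285) and F1 minus Creole -0.01 ± 0.64 (SE, adjusted p = 0.999). Against the median of the other 7 SOD2 probes of the same array, A_72_P444413 was higher in LW than in Creole by 2.28 (two-sided exact permutation test within temperatures, p = 0.00828, adjusted p = 0.0345). O14696, in the opposite orientation, had levels from 5.11 to 5.72 in the arrays of the upper cluster and from 5.11 to 5.64 in those of the lower. These ranges, near background, do not separate the clusters.

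A pooled correlation of A_72_P444413 is not given, since its arrays form clusters. Within the upper cluster of 12 arrays it had r = 0.86 (permutation p = 0.000400, adjusted p = 0.00280 over 14 relations) and rho = 0.90 (p = 0.000210, adjusted p = 0.00147) with A_72_P341278, and r = 0.79 without the 2 arrays farthest from its median. Within the lower cluster of 14 arrays r was 0.66 (permutation p = 0.0121, adjusted p = 0.0329) and rho 0.53 (p = 0.0574, adjusted p = 0.105), and r = 0.72 without the 2 farthest. A_72_P341278 was chosen from 7 probes after the values were seen. By r, 7 of the 14 relations passed the threshold after adjustment, and by rho 2. The weakest were those with A_72_P648498, at r = 0.34 (adjusted p = 0.292) in the upper and 0.30 (adjusted p = 0.293) in the lower cluster, and A_72_P613087 had 0.34 (adjusted p = 0.278) in the lower cluster.

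SOD2 A_72_P341278 had levels from 12.22 to 13.12 in Creole with a median of 12.44. In LW it had levels from 12.68 to 13.62 with a median of 13.07, and the F1 median was 12.61. The ranges overlapped, with 4 of 9 LW arrays above every Creole array. The difference LW minus Creole was 0.54 ± 0.12 (SE, adjusted p = 0.00488), and that of its identical partner A_72_P503136 was 0.49 ± 0.12 (SE, adjusted p = 0.00937). A_72_P613087 was higher by 0.28 ± 0.08 (SE, adjusted p = 0.0184), a call lost with the processed signal, 75th percentile (0.19, adjusted p = 0.108). A_72_P023251 had 0.21 (adjusted p = 0.0622), A_72_P655932 0.12 (0.362) and A_72_P648498 0.08 (0.537). Of the 4 slides that held both breeds, each of the 4 called SOD2 probes was higher in LW on 3, by means not adjusted for temperature.

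A_72_P669424, which shares 40 bases with A_72_P341278, had 0.15 ± 0.10 (SE, adjusted p = 0.315). The difference between both probes was larger in LW than in Creole by 0.40 (two-sided exact permutation test within temperatures, p = 0.00420, adjusted p = 0.0168 over 4 pairs chosen with values known). The difference between the identical probes, in the same exact permutation test, changed by 0.05 (p = 0.0465, adjusted p = 0.0930).

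SOD3 was higher in LW on both probes. Both were well above background on all 26 arrays, but their levels were low. Those of A_72_P035826 ran from 5.64 to 6.73, whereas O14696, at background, reached 5.72. O6249 had levels from 6.02 to 6.90 in Creole with a median of 6.33. In LW it had levels from 6.76 to 7.51 with a median of 7.12, and 7 of 9 LW arrays were above every Creole array. The F1 arrays covered nearly the whole of that span, from 6.07 to 7.77. The difference was 0.75 ± 0.20 (SE, adjusted p = 0.0119), and that of A_72_P035826 was 0.41 ± 0.13 (SE, adjusted p = 0.0328). With the processed signal scaled to the 75th percentile, O6249 had 1.16 and A_72_P035826 0.81, and with the processed signal, quantile-normalized, A_72_P035826 had 0.77, all past the threshold. A_72_P035826 was not past the threshold in 7 of the 26 fits that omitted an array (Creole TN replicate 3, Creole HS replicates 2 and 5, LW TN replicates 3 and 4, LW HS replicates 2 and 5), with values from 0.36 to 0.39 and adjusted p-values up to 0.0617. On all 4 slides with both breeds, O6249 and A_72_P035826 were higher in LW. These slide means are not adjusted for temperature. On slide 5, which gave the largest values, 2 LW TN arrays stood against 1 Creole HS array. The probes differed from each other in this contrast by 0.35 (exact permutation test, p = 0.00476, adjusted p = 0.0298).

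CAT was lower in LW, most on A_72_P686566. Its levels ran from 11.01 to 11.55 in Creole with a median of 11.33, and from 11.06 to 11.38 in F1 with a median of 11.17. In LW they ran from 10.35 to 11.22 with a median of 10.73. In LW, 8 of 9 arrays were below every Creole array. The difference LW minus Creole was -0.55 ± 0.10 (SE, adjusted p = 0.000890) and F1 minus LW was 0.45 ± 0.09 (SE, adjusted p = 0.0137). By the array annotation A_72_P686566 starts at base 838 of the CAT transcript, and the other 8 probes placed on it start between 1488 and 2199. Relative to the median of the other 9 CAT probes, A_72_P686566 was lower in LW by -0.37 (exact permutation test, p = 0.000567, adjusted p = 0.0142).

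A_72_P686566 was lower in LW on all 4 slides that held both breeds, by values from -0.74 to -0.24. These slide means are not adjusted for temperature, and on slide 5 the 2 LW arrays were TN and the 1 Creole array HS.

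Further CAT probes were lower in LW, namely A_72_P632481 (-0.24 ± 0.06 SE, adjusted p = 0.0146), O2285 (-0.25 ± 0.07 SE, adjusted p = 0.0238) and A_72_P643147 (-0.24 ± 0.08 SE, adjusted p = 0.0424). A_72_P643147 lost the threshold in 12 of 26 fits with an array left out (Creole TN replicates 1 and 2, Creole HS replicates 1, 2, 3 and 4, LW TN replicates 1, 3 and 4, LW HS replicates 1, 2 and 3), with values from -0.25 to -0.18 and adjusted p-values up to 0.0872. It also lost the threshold with the processed signal or normexp under quantile scaling, without a filter on dim probes, with the slide as a fixed block and without the temperature term, with adjusted p-values up to 0.101. O2285 lost it without Creole TN replicate 1, Creole HS replicate 3, LW HS replicate 2 or LW HS replicate 3, with adjusted p-values up to 0.0568. The other 6 CAT probes had -0.21 for A_72_P223317, -0.18 for A_72_P664500 and A_72_P560529, -0.17 for A_72_P576934 and A_72_P644069, and -0.16 for A_72_P579607, with adjusted p-values from 0.0729 to 0.289. The mean over the 10 CAT probes was lower in LW by -0.24 ± 0.07 (SE, adjusted p = 0.0256).

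No member passed the threshold between F1 and Creole by limma (0 of 25, against 0.262% of all tested probes, 0.13% higher and 0.132% lower), although 8 of 25 had an unadjusted p under 0.05. All 10 CAT probes had F1 minus Creole below zero, from -0.19 to -0.11, and SOD3 O6249 had 0.56 ± 0.20 (SE, adjusted p = 0.292). Between F1 and LW, A_72_P444413 and A_72_P686566 passed, 2 of 25, against 4.22% of all tested probes, 2.46% higher and 1.76% lower. The breed contrasts share their samples pairwise. With the slide as a fixed block both were lost, at -2.75 (adjusted p = 0.0558) and 0.39 (adjusted p = 0.0544). One of them was lost without F1 TN replicate 3, F1 HS replicate 4, LW TN replicate 3, LW TN replicate 4 or LW HS replicate 4. Any difference between breeds was called on 8 of 25 probes, against 11.3% of all tested probes. They were both SOD3 probes, 4 SOD2 probes and 2 CAT probes. That count was 4 without Creole HS replicate 1, Creole HS replicate 2 or LW HS replicate 2, and 5 without Creole HS replicate 4, Creole TN replicate 1 or Creole TN replicate 3.

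The adipocyte score was lower in LW than in Creole by -0.26 (exact permutation test within temperatures, adjusted p = 0.00125). It ran from -0.25 to 0.02 in LW and from 0.01 to 0.39 in Creole, with 9 of 10 genes measured and 2 of them lower, the hormone LEP (-1.23) and the lipid droplet protein CIDEA (-0.31). The endothelial score was higher by 0.20 (exact permutation test, adjusted p = 0.0399; -0.07 to 0.20 in LW and -0.40 to 0.11 in Creole), with 1 of 7 genes higher, KDR, a receptor of endothelial growth factor (0.87). The fibroblast score was higher in LW by 0.35 without passing the threshold (exact permutation test, p = 0.0158, adjusted p = 0.0578; -0.13 to 0.58 in LW and -0.90 to 0.25 in Creole), with 8 of 8 genes above zero and 3 past the threshold. The skeletal muscle score differed by -0.81 (exact permutation test, adjusted p = 0.380; -2.39 to 1.91 in LW and -1.42 to 2.82 in Creole), with 0 of 9 genes above zero. The part of these cells in the CAT, SOD2 and SOD3 differences was not tested. The red blood cell score differed by 0.05 between these breeds (exact permutation test, adjusted p = 0.672), and with it as a covariate 10 members again passed between LW and Creole.

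The enzymes that share the work with the members were read on 1 probe per gene, the brightest. The counts of each list stand against 12.2% of all tested probes past the threshold between HS and TN, and against 14.3% between LW and Creole, and nothing particular to a list is read from them. Of 12 peroxiredoxins and thioredoxins, which reduce peroxides with thioredoxin, 2 were lower in HS, the mitochondrial PRDX3 (-0.45 ± 0.07 SE, adjusted p = 0.000348) and SRXN1, which repairs oxidized peroxiredoxins (-0.50 ± 0.13 SE, adjusted p = 0.0108). The list median was -0.08. None of 7 glutathione peroxidases passed between HS and TN (median -0.12). GSR, which regenerates glutathione, was the only one of 4 genes of glutathione synthesis to change, lower by -0.29 (adjusted p = 0.00766). Of 17 measured peroxisomal genes, 3 were lower in HS, among them the assembly factors PEX16 (-0.25) and PEX13 (-0.31). Of 11 sources of superoxide and peroxide, CYBA, a subunit of NADPH oxidase, was higher by 0.42 (adjusted p = 0.000126), and no other passed. Of 6 NRF2 targets and regulators, the quinone reductase NQO1 was lower by -0.86 (adjusted p = 2.6e-05), and none of 10 NF-kB responsive genes passed.

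Between LW and Creole, 4 of 12 peroxiredoxins and thioredoxins were lower in LW, namely PRDX1 (-0.73), PRDX3 (-0.36), PRDX6 (-0.31) and TXNRD2 (-0.22), with a list median of -0.17, where 7.43% of all tested probes were lower. Of the 17 peroxisomal genes, 2 were lower, among them PEX2 (-0.62), and the list median was -0.15. GCLM, of glutathione synthesis, was lower (-0.55). Of the 11 sources, 1 was lower and 1 higher, the latter being CYBA (0.22). Of the NF-kB responsive genes, NFKBIA was higher (0.44) and LCN2 lower (-1.30), and no glutathione peroxidase or NRF2 gene passed.

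None of 8 measured genes of metal supply passed between HS and TN, against 12.2% of all tested probes. Their differences were 0.16 for the metal importer SLC39A14, -0.16 for the copper chaperone ATOX1, -0.10 for the copper chaperone COX17 and -0.03 for CCS, which loads copper into SOD1. They were -0.03 for the manganese exporter SLC30A10, -0.04 for SLC31A2, -0.01 for the copper importer SLC31A1 and 0.01 for the copper pump ATP7A. Between LW and Creole 3 of them passed, against 14.3% of all tested probes, with SLC39A14 higher in LW (0.37 ± 0.08 SE, adjusted p = 0.00554) and ATOX1 (-0.30 ± 0.09 SE, adjusted p = 0.0320) and CCS (-0.20 ± 0.06 SE, adjusted p = 0.0341) lower. The other 5 lay between -0.14 for SLC31A2 and 0.07 for ATP7A.

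Of 11 regulators of SOD2 and CAT, FOXO3 (0.21 ± 0.05 SE, adjusted p = 0.0150) and RELA (0.18 ± 0.05 SE, adjusted p = 0.0151), both transcription factors, were higher in HS, where 5.17% of all tested probes were higher. None of the other 9 passed, with differences among them of 0.15 for SP1, 0.13 for PPARA, -0.13 for PPARGC1A, 0.12 for SIRT1, 0.12 for PPARG, -0.10 for FOXO1, -0.05 for SIRT3 and 0.03 for NFKB1. Between LW and Creole, PPARGC1A (0.36 ± 0.10 SE) and FOXO1 (0.34 ± 0.11 SE) were higher in LW and PPARA (-0.38 ± 0.10 SE) was lower, 3 of 11 against 14.3% of all tested probes. Regulators that did not pass had 0.13 for RELA, 0.12 for SIRT3, 0.11 for SP1, -0.07 for NFKB1, -0.06 for FOXO3, -0.02 for SIRT1 and -0.00 for PPARG.

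The genes whose leading probe was most like that of each member were taken by Pearson's r over the 26 arrays after subtraction of the 6 group means, among 9961 genes, as a description. For SOD1 they were NR6A1 (r = 0.78), INTS12 (0.75) and FBP1 (0.75). For SOD2 they were ANAPC13 (0.69), ITGA4 (0.66) and SLC6A17 (0.65). For SOD3 they were KLKB1 (0.78), LPP (0.75) and HELQ (0.75). For CAT they were RPS6KB1 (0.74), GLRX (0.72) and TNNI3 (0.72). Between the members themselves, r on the same scale ran from -0.03 for SOD1 with SOD2 to 0.45 for SOD2 with SOD3. The arrays share their scaling and slides, which can raise any such r.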

How the data were processed

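The authors prepared Cy3-labelled cRNA from total RNA and hybridized it to one-colour porcine arrays. They read the arrays with Agilent Feature Extraction 10.10.1.1. The deposited scanner files give for each spot the median intensity, which was used here, the mean and background intensity, a processed intensity, and flags. A further table of the authors, on the log2 scale and with 44104 probes, served as an alternative.

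Median intensities were quantile-normalized and taken to log2, as the methods of the study state. No background correction was made here. Non-uniform spots were set to missing, and repeated spots were averaged. The test took the 44703 probes that 8 or more arrays measured well above background and ran lmFit and eBayes with a trend (limma 3.58.1, R 4.3.3). HS minus TN was fitted with breed, and breed contrasts with temperature. Changes within breeds and the interaction came from 6 group means. Adjusted p-values are Benjamini-Hochberg values across the 44703 probes, called below 0.05. They measure the spread between animals taken as independent, and the number of arrays limits the precision. The study arranged the pigs in blocks of littermates and in shared pens. The fits leave this out, so that p-values between breeds may be too small. The random effects of the study's model (pen, day, father, mother) are not given by the labels. Permutation tests used 100000 draws (fewer for marker scores with an array left out), or all 8820 arrangements for LW against Creole (scipy 1.17.1, Python 3.11.15), and were two-sided.

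A gene's leading probe, the one of highest mean intensity, was chosen by that rule only and says nothing of transcript amounts. The scanner flags (deposited) gave the background calls. From the pathway lists, genes past the threshold were to be named, with every metal supply gene and regulator, except a few that are not reported here. The members and lists were chosen with earlier results of these data known. In data simulated for HS minus TN over 44703 probes, 86.0% of 50 probes raised by 0.5 and 78.0% of 50 lowered by 0.5 on the log2 scale were recovered. The simulated noise was independent, without slides or litters. Member differences between HS and TN ran from -0.38 to 0.15, so that these shares do not apply to them. Gene names came from the files and a table of pig genes, and no genome or protein sequence was used.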

Additional observations from a re-analysis of the deposited data

Results flagged for a closer look

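In groups of 4 or 5 arrays, 1 array stood apart from the others in 9 of 135 probe and group pairs, and chance gives about 1 in 20. Of these, 3 belong to SOD2 A_72_P444413 and lie in its upper cluster, namely 9.28 in Creole HS replicate 3, 9.07 in F1 HS replicate 1 and 9.98 in F1 TN replicate 1. Creole HS replicate 3 also stood above its group on CAT A_72_P560529 (15.62) and CAT O2285 (16.47). CAT A_72_P686566 was lowest in F1 HS replicate 3 (11.06), and SOD2 A_72_P503136 in F1 HS replicate 5 (12.20). The other 2 are on probes at background, namely CAT A_72_P424079 in Creole HS replicate 5 (4.76) and SOD2 O14696 in F1 TN replicate 4 (5.64).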

How the results depend on the processing

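SOD1 A_72_P722878 and SOD2 A_72_P023251 and A_72_P655932 passed between HS and TN in all 26 fits with an array left out. Of the 3 members called, the count was 5 with the processed signal or normexp and quantile scaling, 11 with the 75th percentile (14.1% of all tested probes), 6 with probes well above background on every array (14.7%), 5 and 6 with the slide as a fixed or random block, 6 with array weights, and 1 with the red blood cell score (1.18%). Leaving out 1 array gave 3 to 7, with 5 without F1 TN replicate 3, 6 without F1 HS replicate 2, F1 HS replicate 4 or LW HS replicate 5, and 7 without LW TN replicate 1. Within breeds the count of 1 became 2 with the processed signal, normexp or the random block, 3 with the 75th percentile or the stricter filter, 4 with array weights, 0 with the fixed block or the red blood cell score, and 0 to 5 with an array left out. Between LW and Creole the count of 10 became 16 with the 75th percentile (15.1% of all tested probes) and 7 to 13 with an array left out. F1 minus LW gave 0 with the fixed block (0.812% of all tested probes) and 1 to 2 with an array left out. Any breed difference gave 12 with the 75th percentile, 5 without the temperature term and 4 to 10 with an array left out. F1 minus Creole and the interaction stayed at 0 in every setting run. Of 11 marker lists, 3 passed, with 2 to 4 when an array was left out.

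Directions reversed between HS and TN for CAT and for SOD2 A_72_P444413, none of them past the threshold in either setting. With the 75th percentile, values were -0.052 for A_72_P223317, -0.042 for A_72_P560529, -0.090 for A_72_P576934, -0.10 for A_72_P644069, -0.065 for A_72_P664500, -0.020 for A_72_P686566 and -0.059 for O2285. A_72_P579607 turned to 0.017 with the red blood cell score and 0.0037 with the fixed block, and A_72_P444413 to 0.57 with the score. With an array left out, A_72_P686566 ran from -0.018 to 0.054, A_72_P644069 from -0.015 to 0.041, A_72_P576934 from -0.0052 to 0.055, A_72_P579607 from -0.053 to 0.023 and A_72_P444413 from -0.53 to 0.092. The cause was not tested. The median over all tested probes moved by at most 0.02 under the other scalings. No direction reversed between LW and Creole. No analysis paired by litter was possible because the labels do not give the litters.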
